A study of Mus musculus with 8 samples.

Results

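Selp, Sele, Icam1, Icam2, Vcam1 and Ackr1 are 6 genes that venular endothelial cells (EC) use to slow, hold and guide passing leukocytes. They were chosen as a named group and are 6 of the 16791 genes in the deposited single-cell table. The study used adult Pdgfb-iCreERT2-R26R-Brainbow2.1 mice, in which tamoxifen switches on a Confetti fluorophore in cells that use the Pdgfb promoter, an endothelial promoter in the adult heart. Each of the 8 mice received tamoxifen once, at 150 mg/kg by intraperitoneal injection. In 4 of them myocardial infarction (MI) was made 14 days later by tying off the left anterior descending artery for good, and the ventricles were taken at 7 days post-MI. The other 4, the healthy mice, had no operation, and their hearts were collected 21 days post-tamoxifen. The healthy mice carry the numbers 227, 228, 239 and 240, and the MI mice 244, 250, 255 and 256. From each heart, CD31+ podoplanin- Confetti+ cells were sorted and made into 1 library, so each mouse is 1 replicate. The sort aimed at Pdgfb-lineage cells with a label, and cells of other types were found among those sequenced. Surgery and infarction cannot be told apart in this design, since no mouse had a sham operation.

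Some healthy cells stood in the table under more than 1 mouse. Of the 2041 barcodes shared by Healthy 228 and Healthy 239, 2030 carried matching counts, as did 301 of the 316 shared by Healthy 227 and Healthy 228 and 2 of the 20 shared by Healthy 239 and Healthy 240. Of each such pair the cell with fewer UMIs was left out of all values below unless stated, 2030 cells of Healthy 228, 301 of Healthy 227 and 2 of Healthy 239, and its partner stayed with the other mouse. From which mouse the copied cells came cannot be worked out, so some cells kept for Healthy 228, 239 and 240 may belong to another healthy mouse. The endothelial cells that remained numbered 1588 to 3549 in a healthy mouse and 3367 to 4761 in an MI mouse, with sums of 4840064 to 7561653 and 14280903 to 23568102 unique molecular identifiers (UMIs, each a counted transcript). The median UMIs per cell were 1866 to 2754 in healthy and 3396 to 4676 in MI mice, and shares of cells were therefore compared after each cell was thinned to 1000 UMIs. The summed level of 5 endothelial markers was 4516 to 4911 counts per 1000000 UMIs (CPM) in healthy and 4297 to 4533 CPM in MI mice.

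Leukocytes leave the blood in steps. Selectins on the endothelium catch sugar-coated ligands on the leukocyte and let it roll, immunoglobulin-family molecules then bind leukocyte integrins and stop it, and chemokines shown on the endothelial surface guide it across the wall. P-selectin (Selp) is stored in Weibel-Palade bodies and moved to the surface within minutes of stimulation, while E-selectin (Sele) is made anew when inflammatory cytokines act on the cell. ICAM-1 (Icam1) and ICAM-2 (Icam2) are ligands of beta-2 integrins such as LFA-1, the latter present on resting endothelium, and VCAM-1 (Vcam1) is the ligand of the integrin VLA-4. Ackr1, the Duffy antigen or atypical chemokine receptor, binds many inflammatory chemokines without classical signalling, carries them across venular endothelium, and is known as a marker of post-capillary and collecting venules.

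On GRCm38 with the GENCODE M21 gene models, the range of each gene from its first to its last exon is as follows. Selp (ENSMUSG00000026580) lies at chr1:164115264-164150026 on the plus strand, and Sele (ENSMUSG00000026582) beside it at chr1:164048234-164057677, also on the plus strand. Ackr1 (ENSMUSG00000037872) lies at chr1:173331886-173333750 on the minus strand. Icam1 (ENSMUSG00000037405) lies at chr9:21015985-21028817 on the plus strand, Icam2 (ENSMUSG00000001029) at chr11:106377656-106388075 on the minus strand, and Vcam1 (ENSMUSG00000027962) at chr3:116109949-116129688 on the minus strand.

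The upstream sequences of 3 of these genes are shown because Selp, Sele and Icam1 are classical targets of cytokine signalling through NF-kB, whose binding sites hold a GG, a short middle and a run such as TTCC. The letters GGNNNTTCC were searched on both strands in the 250 bases before each gene start in the RefSeq promoter table (GRCm38.p6), and were chosen after these windows had been read. Of the 6 genes, 4 had an entry, and Icam2 and Vcam1 had none. The window of Ackr1 held a match too but lies almost wholly within the gene range given above, so it is not shown. Each line is the plus strand, 5′ to 3′, with the matches in capitals (Selp chr1:164115014-164115263, Sele chr1:164047984-164048233, Icam1 chr9:21015690-21015939).
Selp: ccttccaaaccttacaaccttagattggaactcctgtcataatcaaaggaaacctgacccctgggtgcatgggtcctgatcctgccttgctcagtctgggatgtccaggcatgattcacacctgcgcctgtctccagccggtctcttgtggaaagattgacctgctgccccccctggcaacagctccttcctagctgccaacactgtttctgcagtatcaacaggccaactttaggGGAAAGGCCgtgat
Sele: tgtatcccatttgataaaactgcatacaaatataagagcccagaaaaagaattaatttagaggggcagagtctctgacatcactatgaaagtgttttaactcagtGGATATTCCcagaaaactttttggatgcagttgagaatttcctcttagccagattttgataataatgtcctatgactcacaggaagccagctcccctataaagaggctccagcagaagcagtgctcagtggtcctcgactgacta
Icam1: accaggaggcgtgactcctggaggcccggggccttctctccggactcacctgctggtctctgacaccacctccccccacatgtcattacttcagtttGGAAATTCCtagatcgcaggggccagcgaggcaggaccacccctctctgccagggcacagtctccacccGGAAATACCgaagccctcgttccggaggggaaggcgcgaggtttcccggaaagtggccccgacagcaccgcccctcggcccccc
The match in Sele covered bases 145 to 137 before the start. Icam1 had a match at bases 153 to 145, which fits the letters on both strands, and another at 84 to 76 on the minus strand. Selp had a match at bases 14 to 6, on the strand opposite to the gene. Of all 32851 such windows, 5144 (15.7%) held the letters, so a match is a description of the sequence and no evidence of binding.

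The first comparison asked how the level of each gene in EC differed between healthy hearts and hearts at 7 days post-MI. UMIs were summed over the EC of each mouse. In whole sums, more cells of a kind and more RNA per cell cannot be told apart. For both selectins, all 3 integrin ligands and Ackr1 the CPM per mouse are shown in the plot of levels by mouse.

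**Figure D1:**
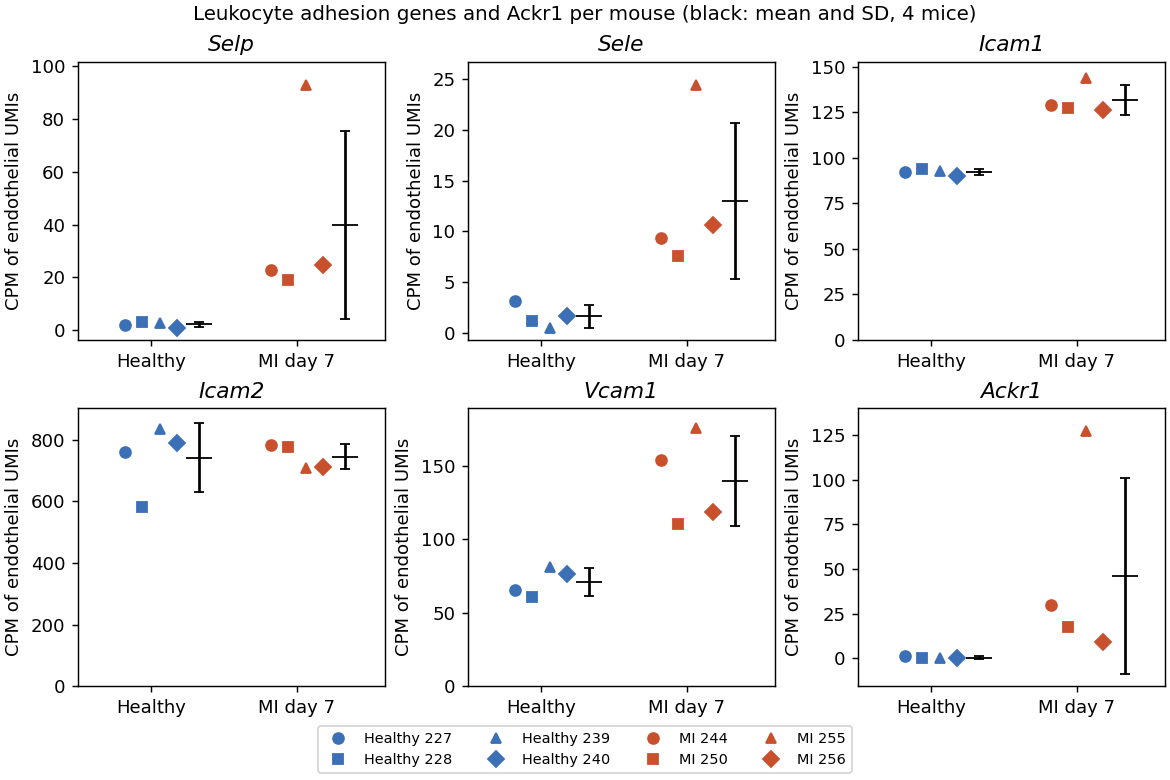
Level of each gene in the summed endothelial cells of each mouse (CPM), 1 point per mouse, with the group mean and SD as black dash and whiskers. For Selp, Sele, Icam1, Vcam1 and Ackr1 the 4 MI mice lie above the 4 healthy mice, and for Icam2 the groups overlap.

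Selp stood at 2.15, 3.31, 2.78 and 0.933 CPM in Healthy 227, 228, 239 and 240, and at 22.7, 19.0, 92.8 and 24.6 CPM in MI 244, 250, 255 and 256. Every MI mouse was above every healthy mouse, and MI 255 stood far above the other MI mice. The mean rose from 2.29 ± 1.02 to 39.7 ± 35.4 CPM (SD, n = 4 each), a ratio of 17.3. Sele stood at 3.14, 1.24, 0.529 and 1.73 CPM in the healthy and at 9.39, 7.64, 24.4 and 10.6 CPM in the MI mice, in the same order of animals. The groups did not overlap here either, and MI 255 was again the highest. The mean rose from 1.66 ± 1.11 to 13.0 ± 7.68 CPM, a ratio of 7.83. In healthy EC both selectins rested on few molecules, with 57 UMIs of Selp in 39 cells and 42 UMIs of Sele in 16 cells.

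Icam1 had little spread between mice. It stood at 92.0, 93.6, 92.8 and 89.9 CPM in the healthy mice and at 129, 127, 144 and 126 CPM in the MI mice, so that the lowest MI value was well above the highest healthy one. The mean rose from 92.1 ± 1.61 to 132 ± 8.29 CPM, a ratio of 1.43. Vcam1 stood at 65.7, 60.5, 80.9 and 76.5 CPM in the healthy and at 154, 111, 176 and 119 CPM in the MI mice. Its groups were apart too, and its mean went from 70.9 ± 9.43 to 140 ± 30.6 CPM, a ratio of 1.97. Icam2, the ligand of resting endothelium, stood at 761, 580, 836 and 790 CPM in the healthy and at 782, 777, 707 and 712 CPM in the MI mice. Its groups overlapped, with the widest values both in healthy mice, and the means were 742 ± 112 and 745 ± 40.2 CPM.

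Ackr1 was almost absent from healthy EC. It stood at 1.32 CPM in Healthy 227 and at 0 in the other 3 healthy mice, against 30.0, 17.4, 127 and 8.96 CPM in the MI mice (45.9 ± 54.9 CPM). All 8 healthy UMIs came from 1 cell of Healthy 227, which also held 6 UMIs of Vcam1, 3 of Icam2, 3 of the venular gene Lrg1 and 2 of the venous transcription factor gene Nr2f2, but none of Selp, Sele or Icam1. The limit of 3 UMIs in a library lay between 0.397 and 0.62 CPM in the other healthy mice. In MI mice 4012 UMIs of Ackr1 were counted, with up to 86 in 1 cell, and 109 cells held 10 or more.

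For 5 of the 6 genes the lowest MI mouse was above the highest healthy mouse, with an exact permutation p of 0.0286 (two-sided, the smallest that 4 against 4 mice allow), and for Icam2 the exact p was 0.971. Among the genes tested, 23.4% had all MI mice above all healthy mice. With edgeR's quasi-likelihood test fitted over 12259 genes, 5 of the 6 genes were called at an adjusted p under 0.05, all higher in MI. With limma-voom in its place Ackr1 was not called (7.43, adjusted p = 0.0666). Changes were common in these data, since 37.9% of genes were called and 18.8% were called higher. By edgeR, Ackr1 rose by 7.08 on the log2 scale (SE 1.30, adjusted p = 0.00289), Selp by 4.07 (SE 0.65, adjusted p = 0.00153) and Sele by 2.90 (SE 0.51, adjusted p = 0.00244). Vcam1 rose by 0.89 (SE 0.15, adjusted p = 0.00202) and Icam1 by 0.43 (SE 0.07, adjusted p = 0.00159), while the value for Icam2 was -0.08 (SE 0.11, adjusted p = 0.583).

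Libraries that stood apart bear on the size of these changes. Without MI 255 the edgeR log2 change was 5.81 for Ackr1, 3.23 for Selp, 2.41 for Sele, 0.77 for Vcam1 and 0.39 for Icam1, and all 5 were still called. In that fit 28.3% of genes were called and 14.5% were called higher. The fitted change of Ackr1 has a healthy base of 1 cell, and without Healthy 227 that base is 0. Its fitted values depend on that cell and on the prior count of the fit, and are no measure of a fold.

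The share of EC with at least 1 UMI at 1000 UMIs per cell moved in the same direction. Selp was found in 0.0453%, 0.196%, 0.181% and 0.0327% of the EC of the healthy mice and in 1.36%, 1.13%, 5.06% and 1.16% of those of the MI mice. Sele was found in 0.0605% to 0.0906% and in 0.505% to 1.55%, and Ackr1 in at most 0.0453% and in 0.356% to 4.60%. All 3 were thus rare in every mouse at this depth, and most EC of an infarcted heart had none of them. Without thinning the shares were larger, and in MI 255 they were 13.1% for Selp, 11.5% for Ackr1 and 5.91% for Sele. Icam1 went from 7.01 ± 0.108% to 10.5 ± 1.03% of cells and Vcam1 from 3.59 ± 0.554% to 8.32 ± 2.11% (SD, n = 4 each). Icam2 was found in about every other cell at this depth, in 50.7 ± 4.72% and 51.9 ± 2.85%. The exact permutation p was 0.0286 for each of the 5 genes other than Icam2 and 0.771 for Icam2. Without any 1 of the healthy mice, Selp (exact p = 0.0857) and Ackr1 (exact p = 0.171) did not pass. The share of all genes that reach this p was not computed for shares of cells.

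Among cells with a UMI, the number of UMIs per cell differed little between the groups for Icam1 (1.24 and 1.25), Icam2 (1.46 and 1.48) and Vcam1 (1.48 in both). These numbers lie near 1, the lowest that a positive cell can have, and do not tell more cells with the gene from more RNA per cell. Selp had 1.04 UMIs per positive cell in healthy and 1.42 in MI mice, and Sele had 1.25 and 1.17, where the healthy values rested on 11 and 7 cells. In the MI mice Ackr1 had 1.72 UMIs per positive cell.

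Cells of other types can shed RNA into droplets, and the sort lets some through. The 1220 haematopoietic-like cells of the MI mice, which were deeper (median 6959.5 UMIs), held Ackr1 in 1.39% and Selp in 1.39% at 1000 UMIs, against 1.57% and 2.12% of all MI EC pooled. Icam1 was found in 7.95%, Icam2 in 13.7% and Vcam1 in 3.03% of them. For Ackr1 the share was thus close to that in EC as a whole, whereas Icam2 was much less frequent in the haematopoietic-like cells than in EC. At the same depth the share with Ackr1 differed far more between classes of EC, from 0.0804 ± 0.161% in capillary to 12 ± 7.37% in Plvap-high cells of the MI mice (classes as defined below). The capillary share came from 1 cell of MI 244, with none in the other MI mice. In CPM, Ackr1 was at 42.9 in the haematopoietic-like and at 48.3 in the endothelial sum. Both are pooled over the MI mice, and 2771 of the 4012 endothelial UMIs of Ackr1 came from MI 255.

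Among them were 999 macrophage-like cells, in which Ackr1 stood at 43.5, 6.98, 86.6 and 0 CPM in MI 244, 250, 255 and 256. The UMIs lay in few cells, since 26 cells with at least 3 UMIs held 343 of the 408 (84.1%). These 26 cells had a median of 16295 UMIs in all, 34 of Plvap and 10.5 of Pecam1, against 7524, 0 and 1 over all macrophage-like cells. In the summed EC, 6 of 6 tested macrophage markers were higher in MI (13.6 to 88.6 CPM in healthy, 227 to 395 CPM in MI mice), as were 4 of 5 haematopoietic markers (5.29 to 18.2 and 42.4 to 68.8 CPM). Of the 4 platelet markers, which matter for Selp because platelets store P-selectin too, 1 was higher and 2 were lower, at 23.5 to 48.5 and 34.6 to 36.7 CPM. The part of any of these in the levels of the 6 genes was not tested.

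The next comparison asked in which EC the genes stood. Each EC was put in a class by UMIs of marker genes that are none of the 6 genes, after thinning. A cell with at least 3 UMIs of Plvap, the diaphragm protein of fenestrated and venular endothelium, was called Plvap-high. Other cells were called capillary by Car4, arterial by Gja4 or venous by Nr2f2, and 68.5% to 76.5% of cells in a mouse showed no such marker. Healthy mice had only 1 or 2 Plvap-high cells each, so that class was described in MI mice alone, where it held 185, 111, 326 and 52 cells (4.51%, 2.33%, 8.72% and 1.54% of EC in MI 244, 250, 255 and 256). The venous class held 25 to 57 cells in a healthy and 108 to 253 in an MI mouse. As a check with other markers of each class, 5 of 5 arterial markers were highest in the arterial class in both groups, and 4 of 5 (healthy) and 5 of 5 (MI) capillary markers in the capillary class. Of 5 venous markers, 4 were highest in the venous class in healthy mice but only 1 in MI mice, where the others were highest in the Plvap-high class. The venous and Plvap-high classes of the MI mice are therefore named by Nr2f2 and Plvap UMIs and not as separate vessel types.

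**Figure D2:**
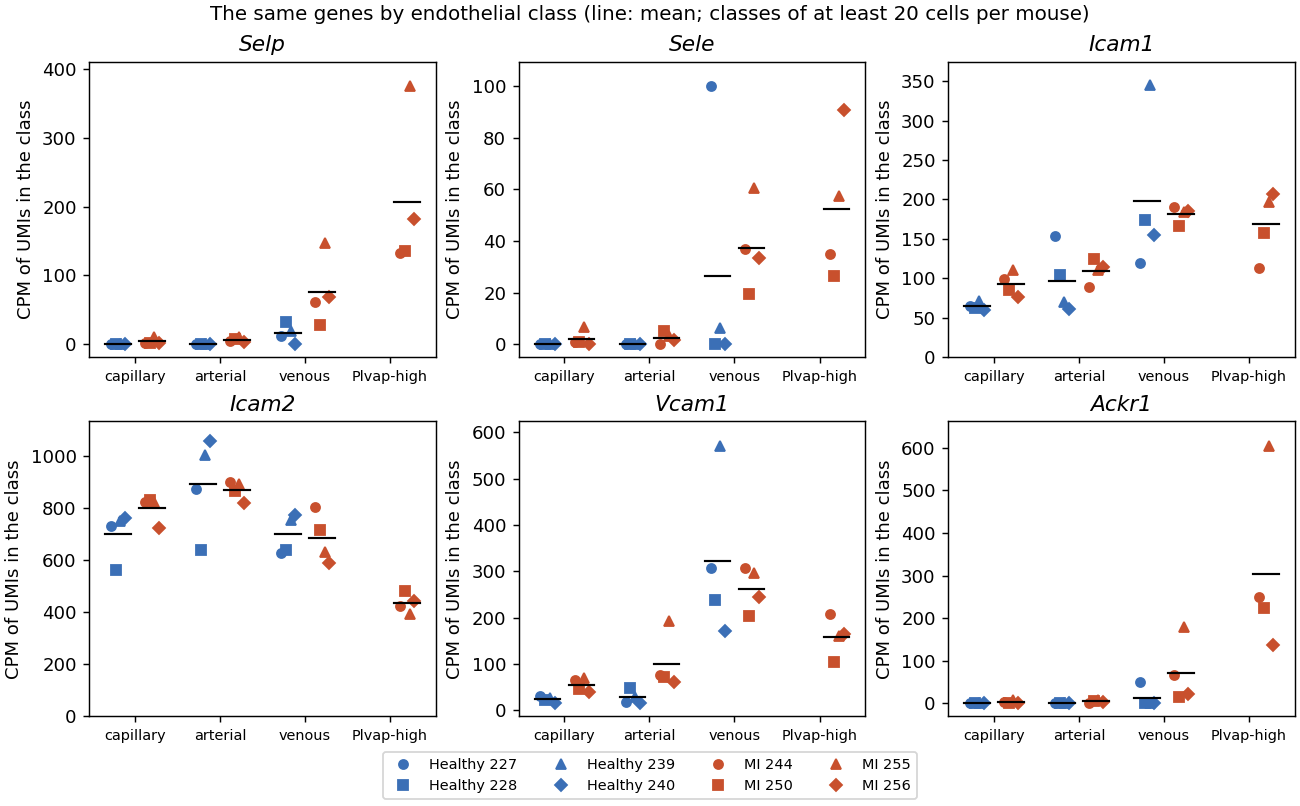
Level of each gene (CPM) in the summed cells of each endothelial class, 1 point per mouse, healthy and MI side by side; the Plvap-high class had at least 20 cells per mouse in MI mice only. Ackr1 and Selp are highest in the Plvap-high class, Vcam1 in the venous class of both groups, and Icam2 is lowest in the Plvap-high class.

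Ackr1 and Selp had their highest levels in the Plvap-high cells. Ackr1 stood at 251, 225, 605 and 137 CPM there in MI 244, 250, 255 and 256, at 15.7 to 179 CPM in the venous class and at 0.699 to 8.15 CPM in the capillary class. Selp stood at 132, 135, 375 and 182 CPM in the Plvap-high class, at 27.8 to 148 CPM in the venous class and at 1.55 to 9.78 CPM in the capillary class. In every MI mouse the order for both genes was Plvap-high over venous over capillary. The Plvap-high class held 4.28% of MI EC and 51.2 ± 7.00% of their Ackr1 UMIs, 33.6% of Selp, 22.8% of Sele, 7.69% of Icam1, 6.84% of Vcam1 and 3.53% of Icam2 UMIs. The cells with no class marker, 74.1% of MI EC, held more of the selectin UMIs, with 54.6 ± 12.6% of Selp and 61.6 ± 9.09% of Sele, and 39.2 ± 7.41% of Ackr1.

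Sele stood at 35, 26.6, 57.6 and 90.8 CPM in the Plvap-high and at 36.7, 19.3, 60.4 and 33.3 CPM in the venous class, which overlapped, and at no more than 6.52 CPM in the capillary class. In healthy mice 16 of the 17 venous Sele UMIs came from Healthy 227, so its healthy venous level (26.6 CPM) rested on 1 animal.

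Among the classes Vcam1 was highest in the venous class in both groups, although 76.5% of its MI UMIs lay in cells with no class marker. In the healthy mice it stood at 306, 238, 572 and 172 CPM in the venous, at 31.3, 21.7, 26.8 and 14.8 CPM in the capillary and at 17.5, 48.6, 29.2 and 15.2 CPM in the arterial class. The venous cells of every healthy mouse were above the other classes of any healthy mouse. In the MI mice it stood at 308, 203, 297 and 244 CPM in the venous, at 65.2, 46.9, 70.1 and 38.4 CPM in the capillary and at 75.8, 70.8, 192 and 60.5 CPM in the arterial class. The venous levels of the groups overlapped, whereas capillary and arterial levels of all MI mice were above those of all healthy mice. The share of all genes set apart in this way within a class was not computed. The healthy levels of Vcam1 rested on 41 UMIs in the arterial and 116 in the capillary class.

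Icam1 followed a flatter slope, with means of 198 ± 101 CPM in the venous, 97.1 CPM in the arterial and 64.3 CPM in the capillary class of healthy mice, and of 182 ± 10.2, 110 and 92.7 CPM in those of MI mice, with 168 CPM in the Plvap-high class. Icam2 differed from the other 5 genes. Its means were 700 and 799 CPM in the capillary, 892 and 869 CPM in the arterial and 697 and 683 CPM in the venous class of healthy and MI mice, and 435 ± 37.5 CPM in the Plvap-high class.

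These differences were tested with edgeR on the sums per mouse and class, with the mouse as a block. Against capillary cells of the same MI mice, venous cells had higher Sele (log2 difference 4.69, SE 0.48), Ackr1 (4.56, SE 0.37), Selp (4.34, SE 0.28), Vcam1 (2.18, SE 0.18) and Icam1 (0.95, SE 0.15). Icam2 was lower (-0.26, SE 0.07), a call that was lost without MI 250, MI 255 or MI 256. All 6 genes were thus called in a contrast in which edgeR called 16% of genes. The capillary cells of the MI mice held only 7 UMIs of Sele, 13 of Ackr1 and 17 of Selp, so the sizes of these 3 differences, and their order, are not exact here or for the Plvap-high cells. Plvap-high cells had higher Ackr1 (6.76), Selp (5.85), Sele (5.05), Vcam1 (1.50) and Icam1 (0.88) and lower Icam2 (-0.85) than capillary cells, again 6 of 6 calls, where 29.9% of genes were called.

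Plvap-high and venous cells of the MI mice differed as well, a contrast added after seeing the data. Selp (1.51 on the log2 scale by edgeR) and Ackr1 (2.19) were higher in the Plvap-high cells, and Vcam1 (-0.68, adjusted p = 0.00227) and Icam2 (-0.59) were lower, which made 4 calls where 16.4% of genes were called. Sele (0.36, adjusted p = 0.390) and Icam1 (-0.08, adjusted p = 0.816) were not called. The integrin ligand and the selectin thus had their highest class apart, Vcam1 in venous and Selp in Plvap-high cells.

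Arterial and capillary cells differed less. In MI mice, where edgeR called 17.2% of genes, Vcam1 was higher in arterial cells (0.80, SE 0.20, adjusted p = 0.00208) and the other 5 genes were not called. The Vcam1 value fell to 0.41 without MI 255, with an edgeR adjusted p of 0.0963. In healthy mice, where 12.7% of genes were called, Icam2 was higher in arterial cells (0.30, SE 0.08, adjusted p = 0.00583 by edgeR) and Vcam1 (0.07) and Icam1 (0.38) were not called. Between healthy venous and capillary cells, where 6.12% of genes were called, Vcam1 (3.71, SE 0.30) and Icam1 (1.57, SE 0.25) were higher in venous cells and Icam2 was not called (-0.09, adjusted p = 0.718 by edgeR). Ackr1, Selp and Sele had too few healthy UMIs for a class comparison to be read.

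Whether MI went with a different change in one class than in another was tested as the interaction of class and group. For Vcam1 the change from healthy to MI was smaller in venous than in capillary cells by 1.53 on the log2 scale (interaction -1.53, SE 0.35, edgeR adjusted p = 0.0313). It was 1 of 28 genes called in this contrast, or 0.294% of those tested. With classes fitted alone by edgeR, also added after seeing the data, Vcam1 was higher in MI in capillary cells (1.10, adjusted p = 0.00552) and in arterial cells (1.81, adjusted p = 0.0141), and had a value of -0.44 (adjusted p = 0.355) in venous cells. The share of genes called in these fits was 17% in capillary, 12.9% in arterial and 7.26% in venous cells. The interaction call was lost in the edgeR fit without any 1 of the healthy mice (adjusted p of 0.0705 without Healthy 227, 0.0520 without 228, 0.433 without 239 and 0.0774 without 240), and without MI 250 (0.0694). The value was negative in each of these fits, from -1.74 to -1.15, and it was -1.15 without Healthy 239, the mouse with the highest venous level.

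For Icam1 the same interaction was -0.61 (edgeR adjusted p = 0.552) and for Icam2 -0.17 (adjusted p = 0.797), so neither was called. In simulated data this fit called only 7 of 100 genes with a 2-fold and 44 of 100 with a 4-fold change. A missing call therefore does not show an equal change in the 2 classes. Icam1 was higher in MI in capillary cells alone (0.43, adjusted p = 0.0338 by edgeR), with values of 0.21 in arterial (adjusted p = 0.581) and -0.26 in venous cells (adjusted p = 0.593). No gene of the 6 was called for the interaction of the arterial class, where 0.745% of genes were, and Vcam1 had a value of 0.73 there (adjusted p = 0.717 by edgeR).

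The sums over EC were also fitted with the Plvap-high cells left out, an alternative chosen after seeing the data. Without these cells the edgeR log2 change between healthy and MI EC was 6.09 for Ackr1 (adjusted p = 0.00564), 3.44 for Selp (0.00196), 2.66 for Sele (0.00409), 0.86 for Vcam1 (0.00245) and 0.39 for Icam1 (0.00199). Icam2 was not called (-0.04, adjusted p = 0.766 by edgeR). In this fit 36.4% of genes were called and 18.1% were called higher.

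The genes were next compared within single cells, at 1000 UMIs per cell. For each pair, the number of EC with both genes was set beside the number predicted in each mouse from the separate shares. Icam1 and Vcam1 were found together in 90 healthy EC where 26.4 were predicted, and in 320 MI EC where 141 were predicted. The ratio of observed to predicted was 1.96, 3.79, 3.65 and 3.86 in the healthy and 2.14, 2.67, 2.25 and 1.95 in the MI mice, above 1 in 8 of 8 mice. Cells with both made up 0.843 ± 0.293% of healthy and 2.0 ± 0.741% of MI EC (exact permutation p = 0.0286, n = 4 each).

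**Figure D3:**
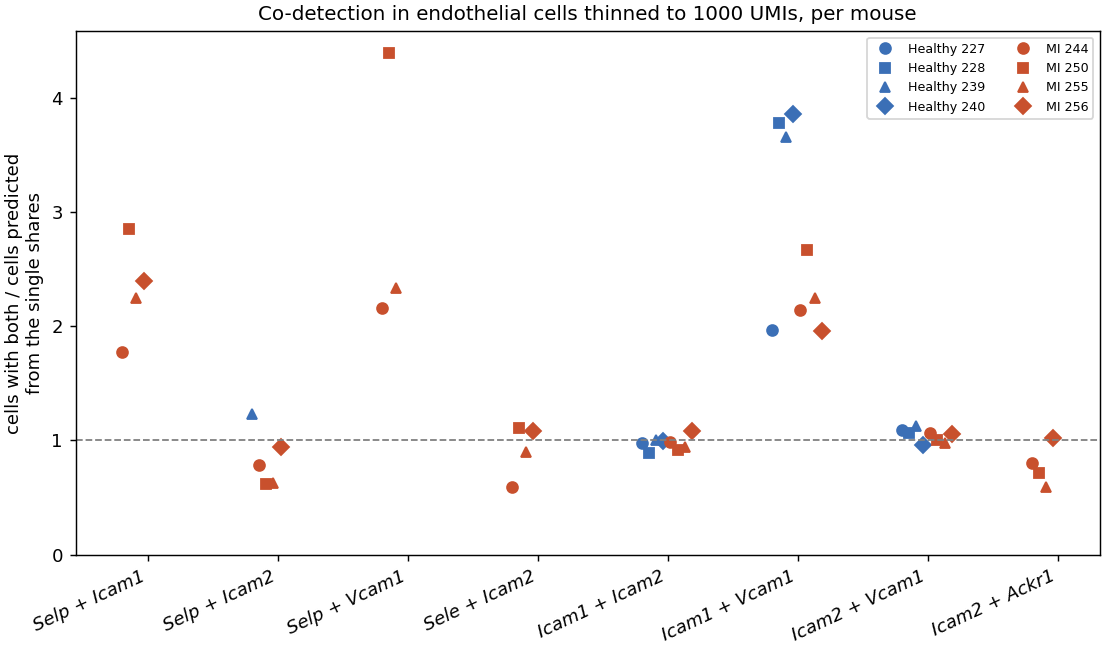
Ratio of observed to predicted numbers of endothelial cells with both genes of a pair at 1000 UMIs per cell, 1 point per mouse with at least 3 predicted cells and only pairs with such a ratio in 3 or more mice; the dashed line at 1 is the value for independent detection. Icam1 with Vcam1 lies above 1 in all 8 mice and Icam1 with Icam2 lies near 1.

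Icam2 went with neither partner. Its ratio was 0.886 to 1.08 with Icam1 and 0.957 to 1.12 with Vcam1 over the 8 mice. In MI mice, Selp was found with Icam1 at a ratio of 2.32 ± 0.443 (SD, n = 4) and with Vcam1 at 2.96 (3 mice, 2.16 to 4.39), whereas with Icam2 the ratio was 0.743 (0.616 to 0.943). Over the MI mice, 93 EC had Selp and Ackr1 where 9.69 were predicted, 31 had Selp and Sele where 3.80 were predicted, and 28 had Sele and Ackr1 where 3.15 were predicted. Of these cells, 70 of the 93, 17 of the 31 and 19 of the 28 came from MI 255. The selectins and Ackr1 were therefore detected together more often than predicted, and Icam2 less often with Selp. Vcam1 and Ackr1 were found together in 53 cells where 25.4 were predicted, and Icam2 and Ackr1 in 85 where 128 were predicted.

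Cells that share a class can raise such ratios, and the count was repeated within classes of the MI mice. In cells without a class marker, Icam1 and Vcam1 were found together in 249 where 109 were predicted, with a ratio above 1 in 4 of 4 mice. In Plvap-high cells, Selp and Ackr1 were found together in 56 where 20.6 were predicted. The predicted number came mainly from MI 255, with 77 cells with Selp and 75 with Ackr1 in this class. The other MI mice had 5 to 18 and 4 to 17. In venous cells, Icam1 and Vcam1 were found together in 26 where 14.9 were predicted. Pooled over the MI mice, the observed number for Selp and Ackr1 was closer to the predicted one within the Plvap-high class than over all MI EC. Within the class, too few cells with both were predicted outside MI 255 for a ratio by mouse. The highest ratio possible is also lower in that class, since both genes are more frequent there. For Icam1 and Vcam1 the excess in cells without a class marker was much like that over all MI EC. These counts are a description over cells of 4 mice, and the part of the classes in the ratios was not tested.

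The 251 MI EC with an Ackr1 UMI were then set beside the 15720 without one, for each of the 5 other genes. Selp was found in 34.1%, 23.1%, 40.7% and 25% of them in MI 244, 250, 255 and 256, against 1.01% to 3.34% of the cells without. Every mouse showed this difference for Selp. On average over mice, Sele was found in 12.3% against 0.649%, Icam1 in 24.0% against 10.4% and Vcam1 in 16.0 ± 10.7% against 8.13%. In MI 256, none of its 12 cells with Ackr1 had Vcam1. Icam2 went the other way on average, at 40.5 ± 8.63% against 52.2%, although MI 256 had 50% against 48.9%. Of the Ackr1 cells, 172 came from MI 255.

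**Figure D4:**
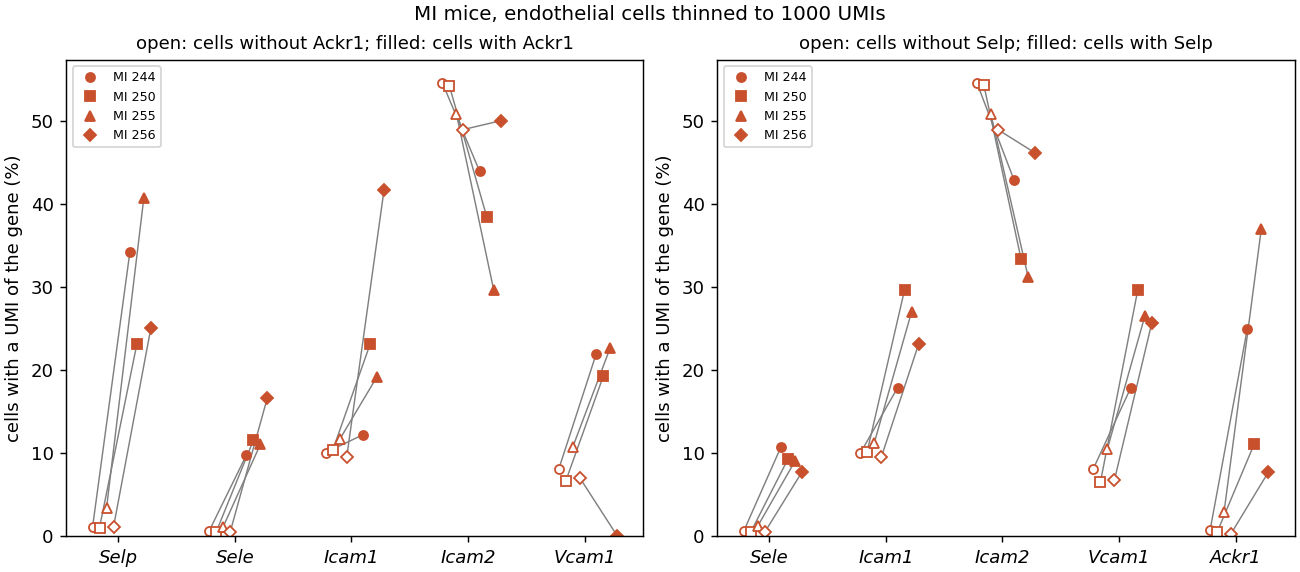
Share of MI endothelial cells with each other gene (%), among cells with and without an Ackr1 UMI and among cells with and without a Selp UMI at 1000 UMIs per cell, 1 point per mouse. Selp and Sele are more frequent in the cells with Ackr1 in each of the 4 MI mice, and the mean share with Icam2 is lower in them.

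Seen from the 338 MI EC with a Selp UMI, Ackr1 was found in 20.2 ± 13.5% against 1.06% of the cells without. Sele was found in 9.17% against 0.636%, Icam1 in 24.4% against 10.2% and Vcam1 in 24.9% against 7.96%. Icam2 was found in 38.4% against 52.2%. The sets of cells with Selp and with Ackr1 shared 93 cells.

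The genes of most similar pattern were taken over the 16 sums of 4 classes in 4 MI mice, among 6267 genes, from log2(CPM + 1) centred within each mouse. They are a description without a test, since the sums share mice and classes. Selp was most like Slco2a1 (Pearson's r 0.98), a prostaglandin transporter, then Csrp2 and Eid1 (0.98 each). Sele was most like Slco2a1 (0.97), Selp and Itga2b (0.95 each). Ackr1 was most like Lrg1, Tgfbi and Selp (0.97 each). Icam1 was most like Casp4 (0.94), and Vcam1 like Rcn3, Ralgapa2 and the Notch ligand gene Dll1 (0.93 each). Icam2 was most like Ceacam1, Wt1 and Asap2 (0.98 each), and ran against Selp (-0.87) and Ackr1 (-0.90).

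Other genes that act with the 6 were taken as lists, and their counts stand beside the 37.9% of all genes called and a median log2 change of -0.02 over all genes tested by edgeR. Of 11 tested genes of transmigration and junctional adhesion, 2 were higher in MI, 2 were lower and 7 were not called, with a median of 0.04. Jam2 fell by 0.82 (adjusted p = 0.00178 by edgeR) and Jam3 by 0.87 (adjusted p = 0.0129), both junctional adhesion molecules, while Mcam, an adhesion molecule of endothelial junctions, rose by 0.60 (adjusted p = 0.0236). Of 3 tested sialomucins, the carriers of selectin ligands, Cd34 rose by 0.63 (adjusted p = 0.00374 by edgeR), Podxl fell by 0.45 (adjusted p = 0.0461) and 1 was not called.

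The Weibel-Palade body, the store of P-selectin, had 3 of 8 genes higher, none lower and a median of 0.27. Vwf, the cargo that forms the body, went from 44.2 ± 8.35 to 132 ± 39.9 CPM (log2 change 1.50, adjusted p = 0.000948 by edgeR). Cd63, a membrane protein of the body and of endosomes, went from 36.3 ± 10.0 to 135 ± 38.2 CPM (1.80, adjusted p = 0.000536). Of 20 cytokine receptor and NF-kB pathway genes, 7 were higher, 4 lower and 9 not called, with a median of 0.17. Il13ra1 (0.94) and Bcl3 (0.65) rose, whereas Irf1 fell by 0.51 and Nfkb1 by 0.49 in the same edgeR fit.

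Of 5 tested chemokines that Ackr1 binds, 3 were higher and none lower, with a median of 1.73 and a summed level of 45.7 to 103 CPM in healthy and 102 to 165 CPM in MI mice. Among the atypical chemokine receptors, all 3 tested genes were called. Besides Ackr1, Ackr3, a scavenger of Cxcl12, rose by 1.68 (30.1 ± 10.8 to 102 ± 18.9 CPM) and Ccrl2 fell by 0.64 by edgeR. Of the 8 leukocyte-side partners of the 6 genes, 4 were tested, 2 were higher and none was lower, and the integrin subunit genes Itgal, Itgam and Itga4 were among those too low to test. The macrophage and haematopoietic markers given above were higher in the same sums, and their part in the counts for chemokines and leukocyte-side partners was not tested. Of 11 genes that respond to tissue dissociation, 1 was higher (Atf3, 0.73) and 1 lower (Hspa1b, which fell by 1.45), and 9 were not called.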

How the data were processed

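Ventricular EC of 8 mice (4 healthy, 4 MI) were profiled with droplet single-cell RNA-seq. The authors deposited a table of raw UMI counts per gene and cell, which the submitters' processing notes tie to Cell Ranger, R 3.5.2, Seurat 2.3 and the mm10 genome. Cells with the same barcode in a pair of healthy mice and at least 90% of UMIs matched were taken as copies, and the one with fewer UMIs was left out. EC were found by clustering (Seurat 5.3.0, 32 components, resolution 0.6) and marker genes. Doublets were not called here. Cells were thinned to 1000 UMIs for shares, pairs and classes, which dropped 582 of 10684 healthy and none of 15971 MI EC. Classes with at least 20 cells in a mouse were kept. Sums per mouse, from 4840064 to 23568102 UMIs, were tested with edgeR 4.0.16 in R 4.3.3 (TMM, filterByExpr, quasi-likelihood, Benjamini-Hochberg over all genes tested, 0.05), and shares with exact permutation over 70 splits of the mice. P-values measure the spread between mice, and in the class contrasts, with the mouse as a block, the spread of class differences between mice. They do not cover healthy cells that may stand under the wrong mouse. DESeq2 1.42.0, limma 3.58.1, other thresholds, other depths and leaving out each mouse were tried as alternatives. Intervals and limits of 3 UMIs cover counting error only. The edgeR fits were tested on simulated data. Between healthy and MI sums, 67 of 100 genes with a 2-fold and 94 of 100 with a 4-fold change were called. For the venous interaction these were 7 of 100 and 44 of 100, and the arterial interaction was not simulated. The 6 genes, the gene lists and the tests were chosen with earlier results of these data known. All 6 genes are named. From each list, the up to 4 called genes of largest change are named if they average 20 CPM or more, and beside each of the 6 genes the 3 of highest Pearson's r (5 CPM or more on average). Some genes that this rule would name are not reported here.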

Additional observations from a re-analysis of the deposited data

Results flagged for a closer look

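In groups of 4 mice, a lowest or highest value was marked when its gap to the nearest mouse was larger, as a share of the group's range, than Dixon's 95% limit allows. Chance marks about 1 in 20 groups, and 15 of the 66 groups looked at were marked. Most of the high values belonged to MI 255. In the sums over EC of the MI mice these were Selp at 92.8 CPM and Icam1 at 144 CPM, and in shares of cells Selp at 5.06%, Sele at 1.55% and Ackr1 at 4.60%. MI 255 was also far above the other MI mice for Selp (9.78 CPM) and Sele (6.52 CPM) in capillary cells and for Vcam1 in arterial cells (192 CPM). It had the largest share of Plvap-high cells of the MI mice (8.72%), and the part of this in the values was not tested.

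Healthy 227 stood apart for Ackr1, at 1.32 CPM in the EC sum, 0.0453% of cells and 49.997 CPM in venous cells, all from 1 cell, and for Sele, at 0.0906% of cells and 99.99 CPM in venous cells. Icam2 in capillary cells was low in Healthy 228 (562 CPM) and in MI 256 (723 CPM). Healthy 228 had 2030 copied cells left out, and its share of EC with Icam2 was 43.9% without and 51.3% with them. The part of the copies in its capillary value was not tested. The change of Vcam1 from healthy to MI differed between venous and capillary cells (log2 -1.53, edgeR interaction, adjusted p = 0.0313), but the call was lost without any 1 of the healthy mice (adjusted p of 0.0520 to 0.433), without MI 250 (0.0694) and with at least 2 Plvap UMIs as the limit of the Plvap-high class (0.0586).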

How the results depend on the processing

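No paired analysis was possible because healthy and MI mice share no replicate numbers. Between mice, Selp, Sele, Icam1 and Vcam1 in the sums over EC kept their direction and their call in every fit over all EC, and Ackr1 in every one but limma-voom (7.43, adjusted p = 0.0666). In a class alone, Selp (2.29) and Sele (0.22) in venous and Icam1 in arterial cells (0.21) were not called, and signs turned for Icam1 (-0.26) and Vcam1 (-0.44) in venous and Icam2 in capillary cells (0.12). With cells thinned to 1000 UMIs edgeR called 2647 genes in place of 4644, and 3293 to 4912 when 1 mouse was left out.

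For shares of cells, 3 to 5 of the genes passed when 1 mouse was left out. Without 1 healthy mouse, Selp (exact permutation p = 0.0857) and Ackr1 (0.171) did not pass although their groups still did not overlap, and their differences over all leave-one-out settings ran from 1.11 to 2.41 and from 0.622 to 2.04 percentage points. Keeping the copied cells changed no call, and the sign only of the Icam2 share difference, which was not called. That difference was -0.746 with copied cells kept and -0.657 with all deposited cells, and ran from -1.05 (without Healthy 228) to 2.38 with 1 mouse left out. The number of the 15 pairs whose share of cells with both genes passed the exact permutation test at 0.05 was 14, and ran from 2 to 15 with 1 mouse left out. The low value came without a healthy mouse. The share of all gene pairs that pass was not computed. A pair can pass when the share of only 1 of its genes rises. Icam1 with Icam2 passed (exact permutation p = 0.0286) at mean observed to predicted ratios of 0.967 in healthy and 0.981 in MI mice. The 14 pairs are thus no result about detection together.

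Between classes, the Vcam1 interaction was -1.44 with at least 2 Plvap UMIs as the limit (0 of the 6 genes called) and ran from -1.74 to -1.15 with 1 mouse left out (0 or 1 called). The causes were not tested. Values not called turned sign for Selp (-0.75) and Sele (-0.23) in arterial against capillary MI cells and Icam2 in healthy venous cells (0.040) when classes were made from unthinned UMIs. With 1 mouse left out, Ackr1 in arterial MI cells ran from -0.030 to 0.99 and Icam1 in Plvap-high against venous cells from -0.20 to 0.14. Depth limits the healthy values of Selp, Sele and Ackr1, which rested on 57, 42 and 8 UMIs.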

Other observations

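In the unsupervised clusters of EC, which were made from all variable genes and are given without a test, a cluster led by Ift122, Apln and Adm ran against the EC as a whole. Apln encodes apelin, a peptide of sprouting endothelium. In this cluster Vcam1 stood at 138 to 183 CPM in the healthy and at 85.0 to 106 CPM in the MI mice, and Icam1 at 155 to 203 and 93.7 to 132 CPM. Both genes were higher in MI in the sums over all EC. In every other cluster with values in healthy mice the mean of Icam1 was higher in MI. The mean of Vcam1 was too, except in the cluster with Vwf given next. The share of all genes lower in MI in the cluster with Apln was not computed. A cluster with Igfbp5 and Vwf among its leading genes had Vcam1 at 421 to 606 CPM in healthy and at 386 to 478 CPM in MI mice, which overlapped. In the same cluster Selp stood at 15.7 to 51.9 and 67.9 to 132 CPM, Sele at 6.04 to 22.7 and 36.2 to 51.2 CPM, and Ackr1 at no more than 16.5 and at 35.4 to 79.4 CPM. A cluster with Plvap, Lrg1, Ackr1 and Selp among its leading genes held 2352 MI cells of 2361. Its means in the MI mice were 94.3 ± 72.5 CPM for Selp, 21.5 ± 11.4 CPM for Sele and 136 ± 141 CPM for Ackr1, against 102 ± 29.6, 44.3 ± 7.83 and 57.0 ± 22 CPM in the cluster with Vwf. Its Selp level ran from 47.5 to 202 CPM, which overlapped with the cluster with Vwf. Selp thus had no clear order between these clusters, whereas it was higher in Plvap-high than in venous cells of every MI mouse. Vcam1 is among the leading genes of the cluster with Vwf.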
